A study of Mus musculus with 12 samples.

Results

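The 10 genes described here work in protein folding in the endoplasmic reticulum (ER) and in the unfolded protein response: Herpud1, Xbp1, Pdia4, Pdia6, Sdf2l1, Calr, Canx, Creld2, Edem1 and Hyou1. They were chosen by symbol, and every probe of the array annotated with a member's symbol was taken, which gave 16 probes among the 34885 with a single gene symbol. Of these, 12 probes passed the filter on dim probes (detection p under 0.05 on at least 3 of the 12 arrays) and gave 9 of the 9795 genes tested. The only probe of Canx, which encodes the membrane lectin chaperone calnexin, was detected on 0 of 12 arrays, so Canx was not tested.

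RNA came from bone marrow-derived macrophages of C57BL/6 mice aged 9 to 16 weeks, grown from marrow in 20% L929-conditioned medium for 8 to 9 days, and was hybridised to 12 Illumina bead arrays. The 4 groups had 3 arrays each: PBS without LPS (replicates 1, 2 and 3), PBS with LPS (7, 8 and 9), HDL with LPS (16, 17 and 18) and cyclodextrin with LPS (22, 23 and 24). HDL, the lipoprotein that accepts cholesterol from cells and is labelled nHDL with the n not spelled out, was given at 300 ug/ml for 24 h. Cyclodextrin, a sugar ring that also extracts cholesterol, was given at 4% for 4 h. The cells were then washed and given LPS, a component of the outer membrane of Gram-negative bacteria, at 10 ng/ml for 6 h. How long cells were held in PBS is not stated. Because HDL was given for 24 h and cyclodextrin for 4 h, agent and contact time cannot be told apart. Both agents were set against the same 3 PBS arrays with LPS, so their differences from PBS are not independent of each other. Whether replicates were separate animals or cultures is not in the labels either, and p-values therefore speak for the spread among these arrays, part or all of which may be technical.

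The ER folds secreted and membrane proteins with chaperones of the HSP70 and HSP90 families, lectin chaperones that hold sugar-bearing proteins, and disulfide isomerases. When unfolded proteins build up, the sensors IRE1, ATF6 and PERK start the unfolded protein response. IRE1 splices the Xbp1 mRNA into the form that codes for an active transcription factor, ATF6 is cut to release another, and PERK slows translation while favouring ATF4 and its target CHOP. XBP1 and ATF6 raise the transcription of chaperones and of the machinery that sends misfolded proteins to degradation. In macrophages, Toll-like receptor signals such as LPS are known to engage parts of this response. The arrays measure total signal at each probe and do not separate the spliced from the unspliced form of Xbp1.

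ATF6 and XBP1 are known to act through short promoter elements, and 9 of the 10 members had a promoter in the RefSeq table (mouse build GRCm38.p6, 250 bases before to 50 after the start). Hyou1 was not matched. On both strands, the ER stress response element (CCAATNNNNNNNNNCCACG) was found in 4 members, Pdia6, Calr, Canx and Creld2, against 39 of all 32544 promoters (0.12%). Its second form (ATTGGNCCACG) was found in Herpud1, against 12 of all promoters (0.0369%). No member held the core of the UPR element (TGACGTGG), which 222 promoters did (0.682%). These are matches of letters and not measured binding sites, and the 3 motifs share no match in these members. The 250 bases before the start are printed for the 5 members with a match, so that the element can be set beside the gene's behaviour below. Capitals mark the whole element in Herpud1 and its fixed bases in the others, as they read on the gene's own strand.
Herpud1 (chr8:94386179-94386428, + strand): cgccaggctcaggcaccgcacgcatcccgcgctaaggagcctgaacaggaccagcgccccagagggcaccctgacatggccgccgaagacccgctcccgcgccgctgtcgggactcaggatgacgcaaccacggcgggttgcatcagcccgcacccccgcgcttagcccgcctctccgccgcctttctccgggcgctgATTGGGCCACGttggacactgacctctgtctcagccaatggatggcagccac
Creld2 (chr15:88819396-88819645, + strand): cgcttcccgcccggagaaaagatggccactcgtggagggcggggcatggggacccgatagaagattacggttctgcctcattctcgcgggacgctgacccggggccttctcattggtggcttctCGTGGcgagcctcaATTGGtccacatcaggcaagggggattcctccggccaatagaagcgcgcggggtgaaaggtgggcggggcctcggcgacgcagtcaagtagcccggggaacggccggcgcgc
Pdia6 (chr12:17266339-17266588, + strand): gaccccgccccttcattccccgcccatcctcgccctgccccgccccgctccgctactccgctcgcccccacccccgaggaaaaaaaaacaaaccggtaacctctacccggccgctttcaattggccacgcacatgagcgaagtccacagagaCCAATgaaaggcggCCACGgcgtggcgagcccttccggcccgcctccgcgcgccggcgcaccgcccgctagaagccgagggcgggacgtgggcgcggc
Calr (chr8:84846932-84847181, - strand): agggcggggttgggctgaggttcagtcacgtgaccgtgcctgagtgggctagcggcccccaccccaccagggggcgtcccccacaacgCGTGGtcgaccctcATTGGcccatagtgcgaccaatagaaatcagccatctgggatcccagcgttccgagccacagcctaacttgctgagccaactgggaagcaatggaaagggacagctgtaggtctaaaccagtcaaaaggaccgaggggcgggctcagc
Canx (chr11:50325674-50325923, - strand): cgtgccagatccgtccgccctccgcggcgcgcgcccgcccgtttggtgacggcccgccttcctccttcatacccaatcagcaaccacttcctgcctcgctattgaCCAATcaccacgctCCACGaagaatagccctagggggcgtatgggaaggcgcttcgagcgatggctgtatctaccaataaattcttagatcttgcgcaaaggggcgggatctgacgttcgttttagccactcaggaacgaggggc

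In the Herpud1 sequence the element lay close to the start, from base -52 to -42. The first form lay from -98 to -80 in Pdia6 and from -145 to -127 in Canx on the gene's strand. On the opposite strand it lay from -126 to -108 in Creld2 and from -162 to -144 in Calr. Among the 5 members with a match, Herpud1 and Creld2 fell under LPS, Pdia6 and Calr did not pass the test there, and Canx was below detection. Of the 4 matched promoters without any of the elements, those of Xbp1, Pdia4 and Sdf2l1 belonged to genes that fell under LPS. That of Edem1 belonged to a gene that did not pass. The Edem1 promoter searched lay inside the gene's annotated span, so the bases before the span's first base were not searched.

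The first comparison asks how 6 h of LPS changed these genes in cells given PBS. LPS lowered 5 of the 9 tested members and raised 0, and the largest fall was that of Herpud1, at 4.82-fold. Across all 9795 genes 38.4% were called lower and 22.2% higher at an adjusted p under 0.05, so falls were common on these arrays. The members' median log2 change was -0.35, and the median over all genes was -0.14. The groups did not overlap in 4 of the 9 members and in 6388 of all 9795 genes, so separate groups were common too. Signals below are log2 values after background correction and quantile normalization, and adjusted p-values come from limma, adjusted by Benjamini-Hochberg over every gene tested. In bulk RNA, fewer cells of a type and less RNA per cell cannot be told apart.

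Among the members tied to regulation and degradation, Xbp1 encodes the transcription factor of the IRE1 branch. Its log2 signals were 12.76, 12.48 and 12.45 without LPS and 11.99, 12.11 and 11.99 with LPS. All LPS arrays lay below all arrays without LPS, a change of -0.53 ± 0.11 (SE, n = 3 per group, adjusted p = 0.000876). The change was called in 23 of 24 alternative ways of processing and had the same sign in all 24. The call was lost with arrays scaled to the median of the probes that passed the filter, chosen after seeing the data. Under that scaling the all-gene median went from -0.14 to 0.05 and Xbp1 stood at -0.09 (adjusted p = 0.576), so the call depends on that choice.

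Herpud1 encodes a membrane protein of the ER that takes part in ER-associated degradation. Its brighter probe read 11.39, 11.42 and 11.47 without LPS. With LPS in PBS cells it read 9.12, 9.22 and 9.13. The groups were far apart relative to their spread, which was 0.04 and 0.05 (SD), and the change was -2.27 ± 0.12 (adjusted p = 6.78e-10). A second Herpud1 probe, with 11.16, 11.12 and 11.11 falling to 8.86, 8.89 and 8.65, gave -2.33 ± 0.17. Edem1, a lectin-like protein that hands misfolded glycoproteins to degradation, had 7.48 to 8.31 without LPS and 7.52 to 7.89 with LPS. These groups overlapped, and its change of -0.11 ± 0.18 did not pass (adjusted p = 0.62). It was called at -0.56 (adjusted p = 0.00747) with arrays scaled to the median of all probes, under which the median of all genes was -0.42.

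Of the HSP70 partners, Sdf2l1 is an ER protein that works with BiP and its J-domain cofactors. It read 10.68, 11.02 and 10.44 without LPS and 10.01, 9.83 and 9.61 with LPS. The groups did not overlap, and the change was -0.89 ± 0.15 (adjusted p = 0.000123), or 1.86-fold lower. Hyou1, an HSP70-like chaperone and exchange factor for BiP, was dim, with its probe detected on 2 of 3 arrays in each of these groups. Its change of -0.07 had a 95% interval from -0.90 to 0.76, so these arrays set only wide limits on it.

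Among the disulfide and lectin members, Pdia4 and Pdia6 encode protein disulfide isomerases. Pdia4 read 9.65, 9.40 and 9.51 without LPS and 9.04, 9.07 and 9.40 with LPS. One array of each group met at 9.40, and the change of -0.35 ± 0.14 passed narrowly (adjusted p = 0.0405). It lost its call without replicate 1 (adjusted p = 0.123), 3 (0.075), 7 (0.14) or 8 (0.129) of the PBS groups, and without HDL replicate 16 (0.0515) or 17 (0.0501). Pdia6 overlapped between groups and changed by 0.03 ± 0.14 (adjusted p = 0.865). When arrays were scaled to the median of all probes, which moved the median of all genes to -0.42, Pdia6 turned to -0.42 (adjusted p = 0.0333), level with that median.

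Creld2, an ER-resident protein with disulfide isomerase-like motifs, read 10.19, 10.40 and 10.14 without LPS and 9.92, 9.54 and 9.63 with LPS. The groups were separate, and the change was -0.54 ± 0.13 (adjusted p = 0.00209). Its second probe gave -0.47 ± 0.13. Calr encodes calreticulin, the soluble lectin chaperone, and its signals of 9.20 to 9.46 without LPS and 9.03 to 9.45 with LPS overlapped. The change was -0.05 ± 0.23 (adjusted p = 0.859). A second Calr probe and 2 further Edem1 probes were detected on 0 arrays. Over single probes, 7 of the 12 member probes were lower and 0 higher, with Herpud1 and Creld2 counted at 2 probes each, where 34.7% of all 15497 probes were lower and 23.1% higher.

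**Figure D1:**
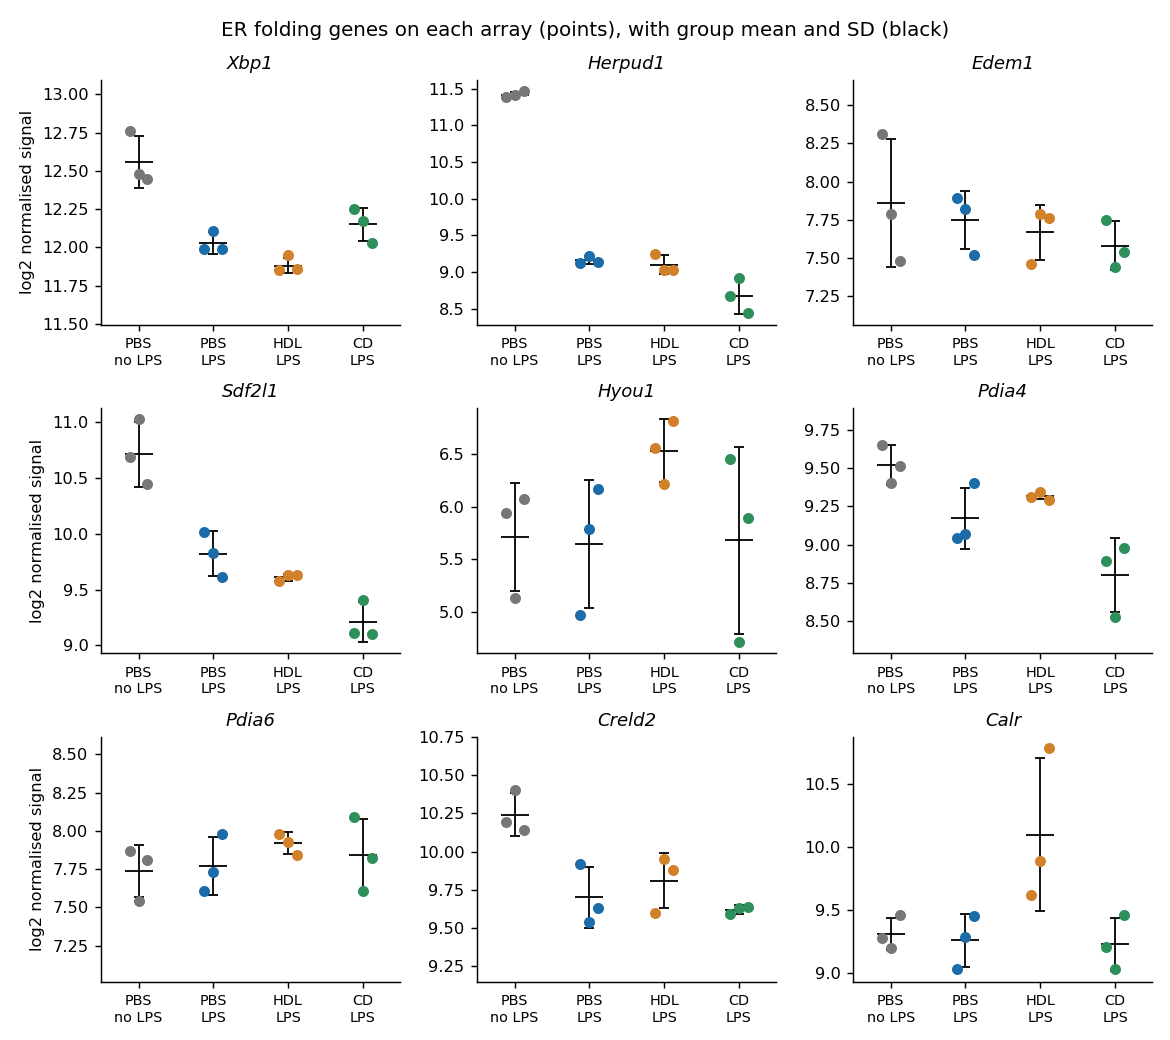
Log2 normalised signal (vertical axes, each with its own range) of the 9 tested genes on every array, in the 4 groups of 3 arrays, where CD is cyclodextrin. Points are arrays and black marks are the group mean with its SD. The step from PBS without LPS to PBS with LPS in Herpud1, from 11.42 to 9.16, is far wider than the spread within its groups, and a single HDL array at 10.79 stands high in Calr.

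Other genes of the ER were counted from 7 lists that cover 111 symbols, of which 100 were on the array and 88 were tested. Under LPS 31 of the 88 were lower and 8 higher, with a median of -0.18. Over all genes 38.4% were lower and 22.2% higher, and the lists are described here without a test of their own.

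The sensors and transcription factors had 4 of 10 lower and 0 higher. Ern1, which encodes IRE1, changed by -0.99 ± 0.14 (adjusted p = 1.55e-05) at its brightest probe and by -0.13 at a second probe that did not pass. Atf4 fell by 0.88 and Ddit3, which encodes CHOP, fell by 0.69, with second probes at -0.82 and -0.74. Atf6 was near the detection limit, detected on 2 of 3 LPS arrays. Under the main processing its group means differed by at least 1.32-fold, a limit that leaves out the spread between arrays. The change was -0.42 (adjusted p = 0.0449), between -0.67 and -0.20 over the 24 alternatives and not called in 12 of them. Eif2ak3, which encodes PERK, was detected on at most 2 arrays and was not tested.

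The list named PERK and CHOP targets moved both ways, with 4 of 9 higher and 3 lower. Ppp1r15b rose by 2.61 ± 0.16. It stands in the list as a regulatory subunit of the phosphatase that reverses PERK's phosphorylation of eIF2 alpha, not as a target. Its stress-inducible relative Ppp1r15a rose from 8.55 ± 0.11 to 9.67 ± 0.02 (SD, n = 3), a change of 1.12 ± 0.11. In the other direction Trib3, a pseudokinase induced by CHOP, changed by -2.67 ± 0.14, with other probes at -0.68 and -0.77. Chac1, a glutathione-degrading enzyme, was detected on 3 of 3 arrays without LPS and 0 of 3 with LPS. Under the main processing its group means differed by at least 7.33-fold, a limit that leaves out the spread between arrays. The log2 change in the limma fit was -3.05 (adjusted p = 1.04e-09). Over the 24 alternatives the log2 change lay between -3.40 and -2.00.

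The HSP70, HSP90 and co-chaperone list had 1 of 8 higher and 2 lower. The gene that rose was Hspa5, which encodes BiP, the main ER HSP70, from 6.66 ± 0.47 to 7.56 ± 0.11, a change of 0.89 ± 0.20 (adjusted p = 0.00116). Its only probe, dimmer than those of Herpud1 and Sdf2l1, moved opposite to those of Herpud1, Sdf2l1 and Dnajb9, and no second probe reads this rise. Dnajb9, a J-domain partner of BiP and a known XBP1 target, changed by -1.19 ± 0.12 (adjusted p = 4.42e-07), with a second probe at -0.77. Dnajc10, a J-domain reductase, fell by 0.45, with overlapping groups and a call lost in 6 of 24 alternatives, and its second probe was at -0.90. Hsp90b1, the ER HSP90, stood at -0.36 ± 0.15 and did not pass (adjusted p = 0.0556, passing in 7 of 24 alternatives). Manf was detected on 0 arrays.

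Of the disulfide formation list 6 of 13 were lower and 0 higher, led by Erp29, a thioredoxin-fold chaperone, at -1.12 ± 0.10 and Ero1b, an oxidase that feeds the isomerases, at -0.77 ± 0.15. The N-glycan folding list had 3 of 6 lower and 0 higher, among them Mcfd2, a cargo receptor subunit, at -0.67 and Mogs, the first trimming glucosidase, at -0.57. ER-associated degradation had 5 of 17 lower and 3 higher. Selenok fell by 0.65 and the ubiquitin-conjugating enzyme gene Ube2g2 fell by 0.54 (adjusted p = 0.0442, not called in 12 of 24 alternatives), while Herpud2, a relative of Herpud1, rose by 0.73 ± 0.16 and the VCP cofactor gene Nploc4 rose by 0.53. All 4 Herpud2 probes were higher, between 0.52 and 0.81, so the probes of the Herpud pair moved in opposite directions. With arrays scaled to the median of all probes, Herpud2 stood at 0.27 (adjusted p = 0.152) and Nploc4 at 0.15 (adjusted p = 0.421). ER entry and export had 8 of 26 lower and 0 higher. Spcs3, a signal peptidase subunit, and Stt3b, a catalytic subunit of oligosaccharyltransferase, led it at -0.79 and -0.82, but other probes of both genes did not pass and lay between 0.09 and 0.24.

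**Figure D2:**
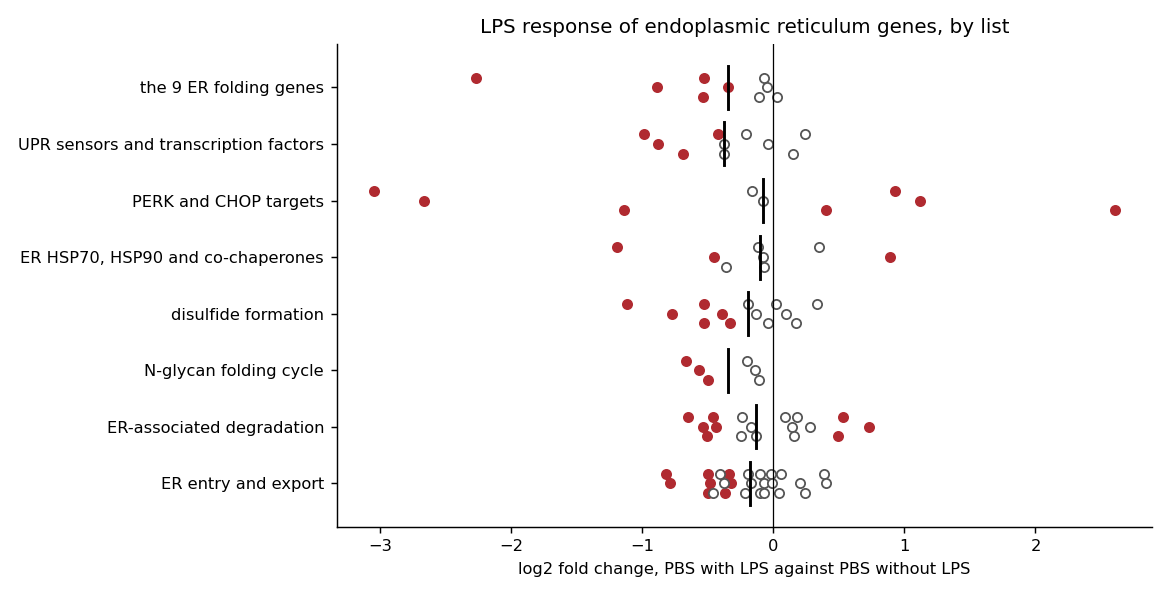
Log2 fold change of PBS with LPS against PBS without LPS (horizontal axis) for the 9 tested folding genes and the genes of the 7 other lists, 1 point per gene, with filled points at an adjusted p under 0.05 and black lines at list medians. Dnajc3 stands in 2 lists. The list of PERK and CHOP targets spreads from Chac1 on the left to the phosphatase subunit gene Ppp1r15b at 2.61 on the right. Herpud1 lies far left of the other folding genes.

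The second comparison sets HDL against PBS under LPS and asks whether the members' levels under LPS differed after prior HDL. No array had HDL or cyclodextrin without LPS. A shift present before LPS and a changed response to LPS therefore cannot be told apart, for either agent. Of the 9 members 0 were called higher and 0 lower by limma, where 0.776% of all genes were higher and 1.08% lower. At an unadjusted p under 0.05 there were 2 members, Calr and Hyou1, where 17.9% of all genes passed, so this count is near the background. The groups did not overlap in 3 of the 9 members and in 2543 of all 9795 genes.

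Calr read 9.62, 9.89 and 10.79 with HDL, against 9.03, 9.29 and 9.45 with PBS. All HDL arrays lay above all PBS arrays, and replicate 18 stood well above the other HDL arrays. The difference of 0.85 ± 0.23 (95% interval 0.35 to 1.34) missed the threshold over all genes (adjusted p = 0.0815). It passed in 6 of 24 alternatives, at an adjusted p from 0.0266 with arrays scaled to the median of all probes to 0.0476 without HDL replicate 16. Over all 24 alternatives the difference stayed positive, between 1.08 and 0.50, the latter without replicate 18 (adjusted p = 0.211).

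Hyou1 read 6.56, 6.21 and 6.81 with HDL and 4.97, 5.79 and 6.17 with PBS. Its probe was detected on 3 of 3 HDL arrays and 2 of 3 PBS arrays, and the groups did not overlap. The difference of 0.88 had a 95% interval from 0.05 to 1.71 and did not pass (adjusted p = 0.25).

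The other 7 members lay between -0.20 and 0.14. For Herpud1 the HDL arrays at 9.24, 9.03 and 9.02 spanned the PBS arrays, and the difference of -0.06 had a 95% interval from -0.32 to 0.21. That interval is narrow beside the LPS change of -2.27 in the same gene. The second Herpud1 probe stood at -0.19, with a 95% interval from -0.54 to 0.17. Xbp1 at 11.85, 11.95 and 11.86 lay just below all PBS arrays, with a difference of -0.15 ± 0.11 (adjusted p = 0.526). Among the 88 other ER genes 1 was higher and 0 lower. It was Ppp1r15a at 0.53 ± 0.11 (adjusted p = 0.0334), which lost its call in 8 of 24 alternatives.

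The third comparison sets cyclodextrin against the same PBS arrays under LPS. Cyclodextrin lowered 2 of the 9 members, Herpud1 and Sdf2l1, and raised 0, where 2.72% of all genes were called lower and 2.41% higher. Both genes had already fallen under LPS in PBS cells, and these comparisons share the PBS arrays with LPS. The members' median was -0.08, against 0.00 over all genes. The groups did not overlap in 3 of the 9 members and in 2593 of all 9795 genes.

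Herpud1 read 8.67, 8.91 and 8.44 with cyclodextrin, all below the PBS arrays at 9.12 to 9.22. The change was -0.48 ± 0.12 (adjusted p = 0.0383), or 1.40-fold lower. Its second probe, at 8.34, 8.41 and 7.83, changed by -0.61 ± 0.17, which just missed in the fit of single probes (adjusted p = 0.0549). Sdf2l1 read 9.11, 9.41 and 9.10, below all PBS arrays, a change of -0.61 ± 0.15 (adjusted p = 0.0327), or 1.52-fold lower.

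Both calls were near the threshold. Without PBS replicate 7 (with LPS) Herpud1 stood at an adjusted p of 0.101 and Sdf2l1 at 0.149. Without replicate 8 these values were 0.128 and 0.0942, without cyclodextrin replicate 22 they were 0.0969 and 0.108, and without 24 they were 0.16 and 0.119. Herpud1 alone lost its call without PBS replicate 9 (0.0817) or replicate 3 (0.0526). The share of probes detected per array was 33.3 to 35.2% in the cyclodextrin group and 36.4 to 36.9% in the PBS group with LPS. With that share as a covariate, chosen after seeing the data, Herpud1 stood at -0.60 (adjusted p = 0.205) and Sdf2l1 at -0.45 (adjusted p = 0.452).

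Pdia4 read 8.89, 8.53 and 8.98 with cyclodextrin, below all PBS arrays, but its difference of -0.37 ± 0.14 did not pass (adjusted p = 0.147). Xbp1 at 12.25, 12.17 and 12.03 overlapped with PBS, with a difference of 0.12 ± 0.11. Hyou1 spread from 4.71 to 6.45 and gave no usable limit, with a 95% interval from -0.79 to 0.87. The remaining members, Pdia6, Calr, Creld2 and Edem1, lay between -0.17 and 0.07 with overlapping groups.

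Of the other ER genes 3 of 88 were higher under cyclodextrin and 0 lower. Ppp1r15a reached 10.78 ± 0.11 from 9.67 ± 0.02, a change of 1.11 ± 0.11 (adjusted p = 0.000156), and was called in all 24 alternatives. Txndc11, a thioredoxin-domain protein, changed by 0.62 ± 0.11 (adjusted p = 0.00408), but only 1 of its 4 probes was called. Mcfd2 changed by 0.55 ± 0.12 (adjusted p = 0.0161) and lost its call in 6 of 24 alternatives. Hspa5 at 0.20, Ddit3 at -0.16, Atf4 at -0.39 and Ern1 at -0.04 did not pass.

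**Figure D3:**
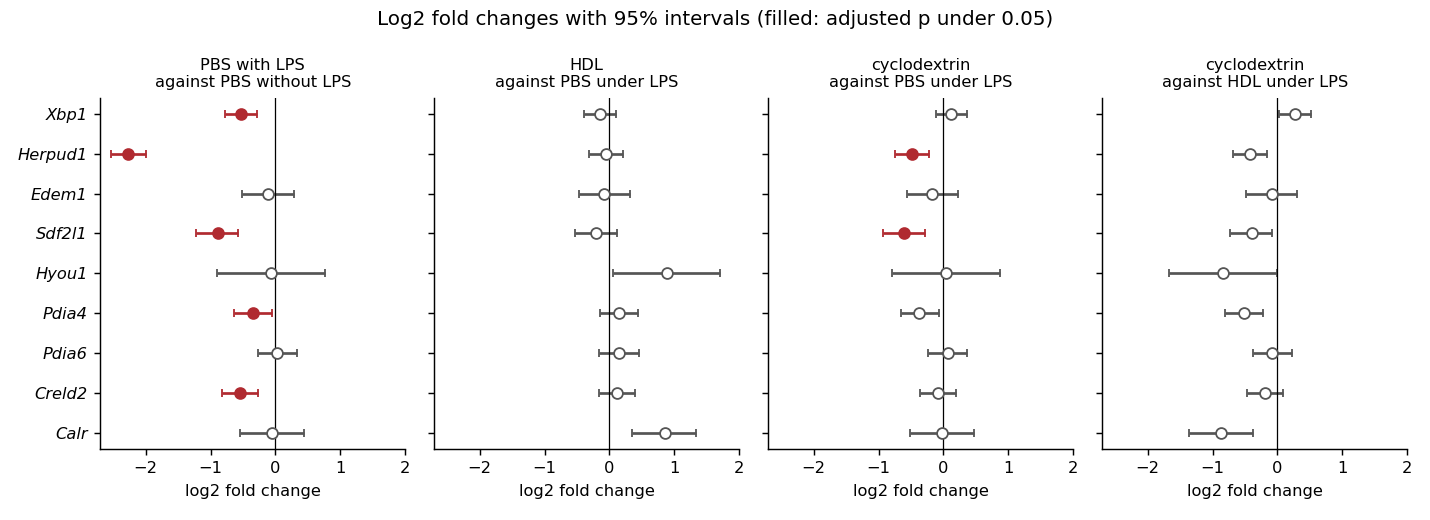
Log2 fold changes (horizontal axes) of the 9 tested genes in the 4 comparisons, with 95% intervals from limma, filled and red where the adjusted p was under 0.05. Under LPS 5 genes are filled, under cyclodextrin against PBS 2 are, and in the comparisons with HDL none is, while Calr and Hyou1 lie to the right of 0 for HDL against PBS.

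The last comparison sets cyclodextrin directly against HDL, at different contact times. By limma 0 of the 9 members were called higher and 0 lower, where 1.25% and 1.53% of all genes were. At an unadjusted p under 0.05 there were 6 members, where 18.5% of all genes passed. Herpud1, Pdia4, Sdf2l1, Calr and Hyou1 of these were lower with cyclodextrin, and Xbp1 was higher. The Hyou1 groups overlapped, and its probe was detected on 2 of 3 cyclodextrin arrays. By sign 8 of the 9 members were lower with cyclodextrin, where 48.2% of all genes were. The members' median was -0.40, and that over all genes was 0.01. The groups did not overlap in 5 of the 9 members and in 2388 of all 9795 genes.

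The differences closest to the threshold were those of Calr at -0.87 ± 0.23 (95% interval -1.37 to -0.37, adjusted p = 0.0606), Pdia4 at -0.51 ± 0.14 (-0.81 to -0.22, adjusted p = 0.0613) and Herpud1 at -0.43 ± 0.12 (-0.69 to -0.16, adjusted p = 0.0834). In Pdia4 the HDL arrays were tight, at 9.31, 9.34 and 9.29, and all cyclodextrin arrays lay below them. The second Herpud1 probe stood at -0.42 ± 0.17 with overlapping groups (adjusted p = 0.197 in the limma fit of single probes). Without HDL replicate 18 the Calr difference was -0.52 (adjusted p = 0.156). Calr was called in 7 of 24 alternatives, Pdia4 in 5 and Herpud1 in 3. With arrays scaled to the median of all probes, which put the median of all genes at -0.14, 4 members were lower, these 3 and Sdf2l1 at -0.59. Xbp1 was the member with the opposite sign, at 0.27 ± 0.11 (adjusted p = 0.233), with no overlap between groups. The dimmer of the Pdia6 probes that passed the filter was also higher with cyclodextrin, at 0.31 ± 0.13 with no overlap and an adjusted p of 0.223 over single probes, while the brighter probe stood at -0.08. A p above the threshold does not show that the agents act alike on these genes.

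Of the other ER genes 5 of 88 were higher with cyclodextrin than with HDL and 0 lower. Besides Ppp1r15a at 0.58 and Txndc11 at 0.72, they were Asns, the asparagine synthetase gene, at 0.60, the membrane-bound transcription factor gene Creb3l2 at 0.90 and Dnajb9 at 0.47 ± 0.12 (adjusted p = 0.0449). The calls held in 11 of 24 alternatives for Dnajb9, 17 for Creb3l2, 19 for Asns, 19 for Ppp1r15a and 22 for Txndc11. Both other Asns probes, at 0.36 and 0.48, were not called. The other Txndc11 probes, at -0.15, 0.22 and 0.34, were not called either, and the mean of its probes gave 0.28 (adjusted p = 0.245). In the limma fit of single probes both Dnajb9 probes missed the threshold (adjusted p = 0.0569 each).

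**Figure D4:**
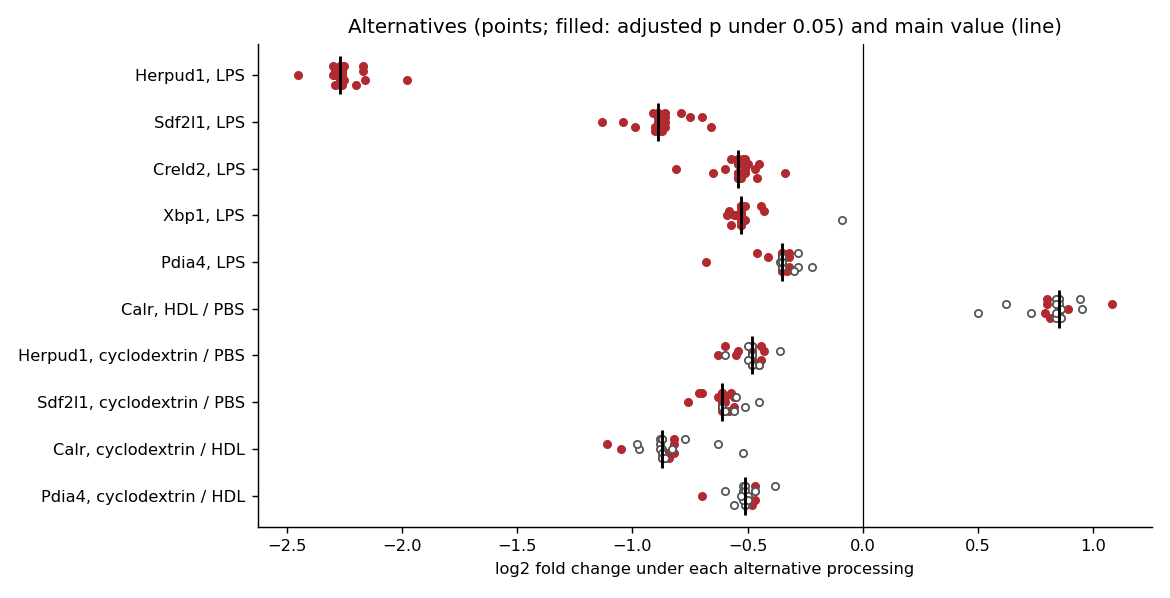
Log2 fold change (horizontal axis) of 10 gene and comparison pairs under each of the 24 alternatives (points, filled at an adjusted p under 0.05), with the main value as a black line. The pairs are the called ones and the members nearest the threshold. Herpud1, Sdf2l1 and Creld2 under LPS stay filled in every alternative shown, while the other pairs hold open points.

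The 9 members did not share a single profile. Each gene was centred on its own mean over the 12 arrays and the members averaged, which gave 0.32 to 0.50 without LPS, -0.22 to -0.07 with PBS and LPS, -0.04 to 0.15 with HDL and -0.45 to -0.17 with cyclodextrin. The root mean square distance to this average was 0.132 for Pdia4 and 0.171 for Creld2, the closest members, and 0.858 for Herpud1, the farthest, whose fall was deeper. Among all genes that are not members the closest were Dusp19 at 0.0902, Cse1l at 0.101, Fh1 at 0.101, Spring1 at 0.103 and Ccng1 at 0.103. Pdia4, the closest member, ranked 26 among all genes in this distance.

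All 10 macrophage markers on the array, Csf1r and Adgre1 among them, were detected on all 12 arrays. Of the 7 markers of B and plasma cells, which include cells rich in ER folding proteins, Ms4a1, Jchain, Mzb1, Pax5 and Tnfrsf17 were detected on 0 arrays. Cd79b was detected on all 12 arrays, with group means of 6.22 to 6.86. Sdc1 was detected on 11 of 12, with a mean of 5.53 without LPS and 6.95 with LPS in PBS cells. The summed linear signal of the B and plasma cell list was 281 to 368, against 97000 to 123000 for the macrophage list. Neutrophil, T and NK cell, fibroblast and dendritic cell lists had 3 of 8, 6 of 8, 5 of 8 and 3 of 8 markers detected on 0 arrays. Prf1 of the T and NK list was detected on all 12 arrays, with group means of 8.65 to 9.12. So were S100a8 (8.73 to 9.59) and S100a9 of the neutrophil list, while Itgax of the dendritic cell list was detected on 10. The summed T and NK signal was 600 to 660 without LPS and 553 to 879 with LPS. The summed fibroblast signal was 202 to 214 without LPS and 376 to 510 with LPS. Lox carried most of this, with a mean of 4.57 without LPS and 7.50 with LPS in PBS cells, while Col1a1, Col1a2, Col3a1, Lum and Postn were the undetected markers. The summed neutrophil signal was 682 to 772 without LPS and 894 to 1230 with LPS. The part of these markers in the LPS results was not tested.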

How the data were processed

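The deposited non-normalized table holds a probe signal and, per the file headers, a detection p-value for each array. Per the submitters' processing notes, GenomeStudio made it (version not stated). A second deposited table holds the authors' processed values, another linear unit with a normalization that no label or header describes. Most values of both had lost their decimal mark, where the planned design assumed intact intensities. Of 543372 signals, 10998 kept their point, 418808 were placed by their detection p-value or digit count, 111483 from each array's curve of processed value against signal, and 2083 from the same probe on other arrays, first those of its group. As a test, 2668 values were hidden and placed again, 0 wrongly. These had kept their point or had been placed by digit count, and for the latter the rule's own place was taken as true. The rules that placed the 418808 were therefore not tested independently. Among member values, 4 kept their point, 74 were placed by detection p-value or digit count and 114 by the curve. Processed values that had lost their mark were given the place nearest to the rebuilt signal. The alternative that uses the processed values is therefore no check on the decimal places.

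Signals were corrected and quantile normalized with neqc (offset 16) in limma 3.58.1 under R 4.3.3 and put on the log2 scale. The filter kept 18364 probes, 15497 of them with 1 symbol in the platform annotation. Each gene took its brightest probe. A limma model (lmFit, eBayes, two-sided) over all 12 arrays gave 4 comparisons, with Benjamini-Hochberg adjustment over 9795 genes, or over 15497 probes for single probes. "At least" folds compare the brighter group's mean with a floored mean of the dimmer group, in which no array counts below its lowest signal of any detected probe. They bound only the part of undetected signal and are not confidence limits. The fit was tested on simulated data. The number of arrays limits the precision, and the deposited tables name no slide or scan.

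The members, lists and alternatives were chosen with earlier results of these data known. Named outside the members were a fixed set of 9 sensors and chaperones and, per list and comparison, the 2 called genes with the largest change each way. Python 3.11.15 placed the decimals and searched the promoters.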

Additional observations from a re-analysis of the deposited data

How the results depend on the processing

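Each result was recomputed under 24 alternatives, 12 of which left out 1 array each. The alternatives draw on the same arrays and are not independent checks. The LPS falls of Herpud1, Sdf2l1 and Creld2 were called under all 24, between -2.45 and -1.98, -1.13 and -0.66, and -0.81 and -0.34. With all arrays, the count of members called under LPS was 3 with median scaling over the probes that passed the filter, an alternative chosen after seeing the data, in which Xbp1 and Pdia4 lost their calls, and 7 with median scaling over all probes, where Pdia6 turned from 0.03 to -0.42. For HDL against PBS the count rose from 0 to 1, Calr, with no background correction, normexp, median scaling, the authors' processed values or an offset of 50. For cyclodextrin against PBS it dropped from 2 to 1 with no detection filter (Herpud1 remained) or with only the 2 groups compared (Sdf2l1 remained), and to 0 when each array's detected share was a covariate, also chosen after seeing the data. For cyclodextrin against HDL it rose from 0 to 2, Calr and Pdia4, with no background correction, normexp, the processed values or an offset of 50, to 4 with median scaling, and to 1 with array weights (Herpud1) or median scaling over the probes that passed (Calr). The cause of these changes was not tested.

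Leaving out 1 array at a time gave 4 to 5 members called under LPS, 0 to 1 for HDL against PBS (1 without HDL replicate 16), 0 to 2 for cyclodextrin against PBS and 0 to 1 for cyclodextrin against HDL (1 without HDL replicate 16 or cyclodextrin replicate 23). No paired analysis was possible because the groups share no replicate numbers. Canx, the second Calr probe and 2 Edem1 probes gave no signal above background, and Hyou1 was detected on 9 of 12 arrays, so little can be said of them. The spread between 3 arrays limits all values, and a gene read by 1 probe has no second reading.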
